A study of Homo sapiens with 4 samples.

Results

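The genes described here encode 10 proteins that modify, fold and crosslink collagen: the prolyl 4-hydroxylase subunits P4HA1, P4HA2 and P4HA3, the lysyl hydroxylases PLOD1, PLOD2 and PLOD3, the lysyl oxidases LOX, LOXL1 and LOXL2, and the collagen chaperone SERPINH1. They were picked by gene name, by a rule that uses no level but was set with earlier results of these data known, and all 10 were found in each of the 4 libraries, among 31907 gene names in all. The libraries were made from HGC-27, an established human gastric cancer (GC) cell line. In 2 libraries the cells had been treated with PBS and in the other 2 with recombinant IL-17B (rIL-17B) at 200 ng/ml, each for 48 h, and no other agent or genetic change is named in the labels for either group. IL-17B is a cytokine of the IL-17 family that binds the receptor IL-17RB, and the question was which transcripts changed in GC cells exposed to it.

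A collagen chain is changed by these enzymes in a fixed order. In the endoplasmic reticulum (ER) the prolyl 4-hydroxylases convert prolines to 4-hydroxyproline, which holds the triple helix together, and the lysyl hydroxylases convert lysines to hydroxylysine, the anchor for sugars and for later crosslinks. SERPINH1, also called HSP47, binds the folded procollagen in the ER and accompanies it towards the Golgi. Outside the cell, the lysyl oxidases turn lysines and hydroxylysines into aldehydes that join neighbouring collagen and elastin molecules and stiffen the matrix. Several of these genes are known targets of the hypoxia-inducible factors in other systems.

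The sequence before the transcription start is shown for 4 of the genes: LOX and LOXL1, which had the 2 lowest ratios to PBS in the first rIL-17B library, and the lysyl hydroxylases PLOD2 and PLOD3, of which the former was low in that library and the latter was not. Each line gives the 250 bases before the RefSeq start on GRCh38.p14, read 5′ to 3′ on the strand of the gene, and the capitals mark the core of the hypoxia response element, ACGTG or GCGTG on either strand. The regions are chr5:122078260-122078509 (minus strand) for LOX, chr15:73926212-73926461 (plus strand) for LOXL1, chr3:146161185-146161434 (minus strand) for PLOD2 and chr7:101217582-101217831 (minus strand) for PLOD3. LOX has 2 further RefSeq starts, whose sequences are not shown.
LOX: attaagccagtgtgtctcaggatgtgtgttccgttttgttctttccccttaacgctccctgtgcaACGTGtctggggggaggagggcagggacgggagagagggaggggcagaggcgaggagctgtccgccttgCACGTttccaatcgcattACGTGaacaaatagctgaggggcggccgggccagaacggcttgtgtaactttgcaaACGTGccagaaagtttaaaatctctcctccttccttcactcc
LOXL1: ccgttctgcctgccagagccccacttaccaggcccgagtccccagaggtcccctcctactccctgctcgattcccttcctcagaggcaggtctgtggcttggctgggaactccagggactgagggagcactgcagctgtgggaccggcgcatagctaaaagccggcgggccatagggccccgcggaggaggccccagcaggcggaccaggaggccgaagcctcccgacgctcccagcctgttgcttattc
PLOD2: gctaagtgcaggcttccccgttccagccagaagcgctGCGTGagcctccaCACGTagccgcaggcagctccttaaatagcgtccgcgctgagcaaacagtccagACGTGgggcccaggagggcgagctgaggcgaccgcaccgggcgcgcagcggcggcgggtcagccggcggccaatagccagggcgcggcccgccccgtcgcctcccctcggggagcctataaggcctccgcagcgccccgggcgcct
PLOD3: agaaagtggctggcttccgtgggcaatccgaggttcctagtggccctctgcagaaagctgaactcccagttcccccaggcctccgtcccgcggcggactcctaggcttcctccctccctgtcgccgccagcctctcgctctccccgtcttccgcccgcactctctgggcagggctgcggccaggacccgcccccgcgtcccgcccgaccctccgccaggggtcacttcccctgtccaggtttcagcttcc
The core occurred 4 times before LOX and 3 times before PLOD2, and it was not found before LOXL1 or PLOD3. Before PLOD1, whose sequence is not shown, it occurred 2 times, and PLOD1 was at 89.0% of the PBS mean in that rIL-17B library. The windows of PLOD1, PLOD2, PLOD3 and LOXL1 lie wholly inside the gene positions given below, downstream of the outer 5′ end. The sequence before that outer end was not searched for these genes. Presence or absence of the core therefore holds for the RefSeq windows only. At least 1 match was found in 43.2% of 35116 promoters cut to the same length, and 3 or more matches in 7.76%. Of the 10 genes, 8 had an entry in the promoter table, with 11 windows between them, and 7 of the 11 windows held the core. These windows belong to 5 genes: PLOD1, PLOD2, LOX, P4HA1 and SERPINH1. All windows of LOX held the core, and those of its 2 further starts overlap and hold the same matches. Neither the 7 windows nor the 5 genes can be set beside the share per window, since LOX and SERPINH1 have more than 1 window. A match in these letters is a description and not a binding site.

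The values are raw read counts per gene name, with between 12888029 and 17555879 counts per library. They are given as CPM, the count divided by the library total and scaled to 1e6. The limit that a count of 0 allows, 3 counts, lay between 0.171 and 0.233 CPM. This floor and all counting intervals cover counting error only, since the libraries were amplified by PCR. Nothing in the labels says that the 2 libraries of a group came from separate cultures, so the spread between them may be technical, and 2 libraries against 2 cannot give a two-sided exact permutation p under 0.333.

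The 2 rIL-17B libraries were not alike. Of the 16361 genes tested, 0.636% differed at least 2-fold between the 2 PBS libraries (0.5 CPM added to each value), and 16.9% differed between the 2 rIL-17B libraries. rIL-17B replicate 1 differed from the PBS libraries in 21.2% and 22.1% of the genes, while rIL-17B replicate 2 differed from them in 0.477% and 1.78%. Each rIL-17B library is therefore described on its own below. As for the labelled cell type, 4 of 8 gastric marker genes had at most 3 counts in both PBS libraries, TFF1 and PGC had none in any library, and the summed level of the list was between 3.90 and 5.51 CPM with PBS. The epithelial list summed to between 1013 and 1016 CPM with PBS, most of it KRT8, KRT7 and KRT18, while CDH1 was at 0.440 and 0.621 CPM. The mesenchymal list was at 3050 to 3197 CPM with PBS. In rIL-17B replicate 1 the epithelial list was at 2253 CPM and the mesenchymal list was at 488 CPM. Of the mesenchymal genes, 9 of 10 were at least 2-fold below the PBS mean there, against 18.6% of all genes tested. Of the 7 epithelial genes tested, 2 were at least 2-fold above it, against 2.61%, and 1 was at least 2-fold below. KRT19 was that gene, with 47 and 43 counts with PBS and 1 in replicate 1. In replicate 2 the epithelial and mesenchymal lists were at 1270 and 2680 CPM. The neural list was at 429 to 638 CPM with PBS, at 59.7 CPM in replicate 1 and at 322 CPM in replicate 2. Most of its PBS level was NES (220 and 345 CPM) and SOX2 (75.5 and 116 CPM). OLIG2 was at 39.9 and 67.4 CPM with PBS, while SOX10 had no count. Of the 8 neural genes tested, 7 were at least 2-fold below the PBS mean in replicate 1, against 18.6% of all genes tested. Both rIL-17B values lay below both PBS values for 6 of the 8, against 27.5%. The monocyte list, checked because the labels' library protocol speaks of monocytes, was at 13.3 to 14.3 CPM with PBS and at 8.55 and 13.1 CPM in the rIL-17B libraries. Of the 6 monocyte genes tested, 5 were at least 2-fold below the PBS mean in replicate 1, against 18.6% of all genes tested. CSF1R was the exception, at 8.14 CPM there and at 3.90 and 5.59 CPM with PBS. In replicate 1, 8 of the 10 genes had at most 3 counts, where 1 of the 10 had at most 3 in both PBS libraries. In such bulk libraries fewer cells of a type and less RNA per cell cannot be told apart. The part of these differences in the results for the collagen enzymes was not tested.

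All 3 lysyl oxidases had both rIL-17B values below both PBS values, by a large margin in replicate 1 and a small one in replicate 2. LOX, the founding member of the family, is on chromosome 5 (122063195 to 122078360, minus strand, GENCODE 29 on GRCh38). It had 6394 and 4438 counts in the PBS libraries, against 416 counts in rIL-17B replicate 1 and 5746 in replicate 2. These are 402 and 344 CPM in the PBS libraries, against 28.5 CPM in rIL-17B replicate 1 and 327 in replicate 2. LOX was thus 13.1-fold lower than the PBS mean in replicate 1 and 1.14-fold lower in replicate 2, and the 2 PBS libraries differed 1.17-fold between themselves. LOXL1, a paralogue known for its part in elastic fibres, is on chromosome 15 (73925989 to 73952137, plus strand). It had 1071 and 889 counts in the PBS libraries, only 39 in rIL-17B replicate 1 and 1016 in replicate 2. Its levels were 67.3 and 69.0 CPM in the PBS libraries, against 2.67 CPM in rIL-17B replicate 1 and 57.9 in replicate 2, where the 39 counts allow 1.90 to 3.65 CPM (95% Poisson interval). LOXL1 was 25.5-fold lower than the PBS mean in replicate 1, the largest difference among the 10 genes, and 1.18-fold lower in replicate 2. LOXL2, a paralogue that acts on collagen IV, is on chromosome 8 (23297189 to 23425328, minus strand). It had 4884 and 3953 counts in the PBS libraries, against 1051 counts in rIL-17B replicate 1 and 4602 in replicate 2. The 2 PBS values of LOXL2 were both 307 CPM, and the rIL-17B values were 71.9 and 262 CPM, which is 4.27-fold and 1.17-fold below the PBS mean.

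Among the lysyl hydroxylases, PLOD2 and PLOD1 had both rIL-17B values below both PBS values, PLOD1 by little, and PLOD3 did not. PLOD2, known for hydroxylating the lysines of the collagen telopeptides, is on chromosome 3 (146069440 to 146163653, minus strand). It had 5982 and 4492 counts in the PBS libraries, against 1867 counts in rIL-17B replicate 1 and 5558 in replicate 2, or 376 and 349 CPM against 128 and 317 CPM. That is 2.84-fold below the PBS mean in replicate 1 and 1.14-fold below it in replicate 2, where the PBS libraries differed 1.08-fold. PLOD1, which hydroxylates lysines within the helix, is on chromosome 1 (11934205 to 11975538, plus strand). It was at 371 and 376 CPM in the PBS libraries, against 333 CPM in rIL-17B replicate 1 and 367 in replicate 2, from 4851 to 6450 counts. PLOD1 was therefore 1.12-fold and 1.02-fold below the PBS mean, and its 4 values did not overlap between the groups. The 95% Poisson interval of PLOD1 in replicate 2, 358 to 376.5 CPM, covers both PBS values, however. PLOD3, the family member that also transfers sugars to hydroxylysine, is on chromosome 7 (101205977 to 101218420, minus strand). Its levels were 130.2 and 139 CPM in the PBS libraries, against 149.7 CPM in rIL-17B replicate 1 and 130.4 in replicate 2, from 1794 to 2290 counts. rIL-17B replicate 1 was above both PBS libraries for PLOD3 and replicate 2 lay between them.

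SERPINH1, the collagen chaperone on chromosome 11 (75562056 to 75572783, plus strand), was the highest of the 10 genes per exon length in each library. It had 12576 and 10130 counts in the PBS libraries, against 5757 counts in rIL-17B replicate 1 and 12827 in replicate 2. The levels were 791 and 786 CPM in the PBS libraries, against 394 CPM in rIL-17B replicate 1 and 731 in replicate 2, so that both rIL-17B values lay below both PBS values. SERPINH1 was 2.00-fold below the PBS mean in replicate 1 and 1.08-fold in replicate 2, against a 1.01-fold difference between the PBS libraries.

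The prolyl 4-hydroxylase subunits had lower values than PBS in rIL-17B replicate 1 and values close to PBS in replicate 2. P4HA1 and P4HA2 encode alternative catalytic subunits of the enzyme, whose other subunit is the protein disulfide isomerase P4HB. P4HA1 on chromosome 10 (73007217 to 73096974, minus strand) had 1842 and 1244 counts in the PBS libraries, against 708 counts in rIL-17B replicate 1 and 1790 in replicate 2. These are 116 and 96.5 CPM against 48.4 and 102 CPM, and the value of replicate 2 lay between the 2 PBS values. P4HA1 was 2.19-fold below the PBS mean in replicate 1, while the PBS libraries differed 1.2-fold. P4HA2 on chromosome 5 (132191838 to 132295315, minus strand) was at 74.6 and 67.7 CPM in the PBS libraries, against 41.3 CPM in rIL-17B replicate 1 and 69.5 in replicate 2, again with replicate 2 between the PBS values. P4HA3, the least abundant catalytic subunit, is on chromosome 11 (74235801 to 74311657, minus strand). It had only 63 to 123 counts per library, and its levels were 7.23 and 8.30 CPM in the PBS libraries, against 4.31 CPM in rIL-17B replicate 1 and 7.01 in replicate 2, and the groups did not overlap. The 95% Poisson interval of replicate 2, 5.82 to 8.36 CPM, covers both PBS values of P4HA3.

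**Figure D1:**
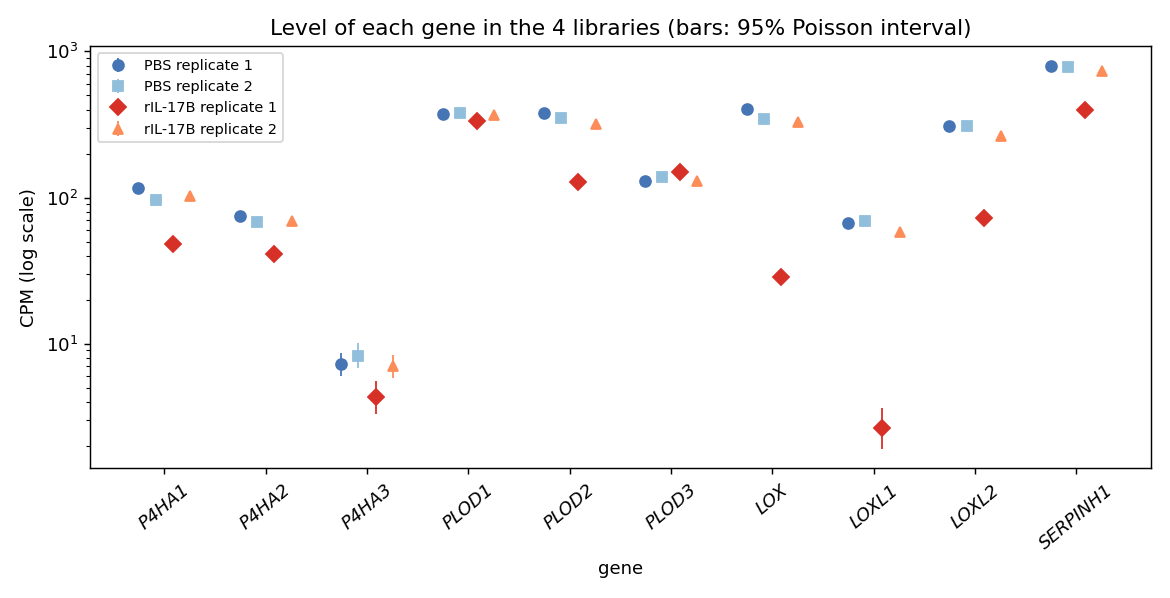
Level of each of the 10 genes in CPM on a log axis, 1 point per library with its 95% Poisson interval. rIL-17B replicate 1 (diamonds) lies below both PBS libraries for 9 genes, furthest for LOXL1 at 2.67 CPM and LOX at 28.5 CPM, and above them for PLOD3 at 149.7 CPM, while rIL-17B replicate 2 (triangles) lies near the PBS points.

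Counted over the 10 genes, 7 had both rIL-17B libraries below both PBS libraries (P4HA3, PLOD1, PLOD2, LOX, LOXL1, LOXL2 and SERPINH1), and 0 had both above. Over all genes tested, 27.5% were below in this way and 31.5% above. rIL-17B replicate 1 alone was below both PBS libraries for 9 genes, against 40.8% of all genes tested, and above both for 1, PLOD3, against 50.1%. Replicate 2 alone was below both for 7 genes, against 36.1%, and above both for 0, against 37%. In replicate 1, 6 genes were at least 2-fold below the PBS mean (P4HA1, PLOD2, LOX, LOXL1, LOXL2 and SERPINH1), against 18.6% of all genes tested, and 0 were 2-fold above it, against 2.61%. SERPINH1 stood at that limit, with a log2 ratio of -1.0001. In replicate 2, 0 genes were 2-fold below, against 0.575% of all genes, and 0 were 2-fold above, against 0.0611%. The median log2 ratio of the 10 genes to the PBS mean was -1.06 in replicate 1 and -0.12 in replicate 2, beside 0.082 and -0.0013 for all genes tested. With library sizes scaled by TMM (trimmed mean of M values) the medians over all genes were -0.044 and -0.0052, a shift of the scale in replicate 1, and those of the 10 genes were -1.20 and -0.13.

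Placed among all genes tested, LOXL1 and LOX were near the lower end in rIL-17B replicate 1. Only 2.27% of the genes had a lower ratio to the PBS mean than LOXL1 and 3.91% a lower ratio than LOX. For LOXL2 this share was 9.60%, for PLOD2 13.4%, for P4HA1 17.2% and for SERPINH1 18.6%, while PLOD1 stood at 37.3% and PLOD3 at 54.3%. In replicate 2, all 10 genes stood below the middle, between 18.0% for LOXL1 and 45.1% for PLOD1. LOXL1, LOXL2, PLOD2 and LOX had the lowest ratios of the 10 in both rIL-17B libraries. Both sets of ratios use the same PBS mean, so the orders are not independent of each other.

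**Figure D2:**
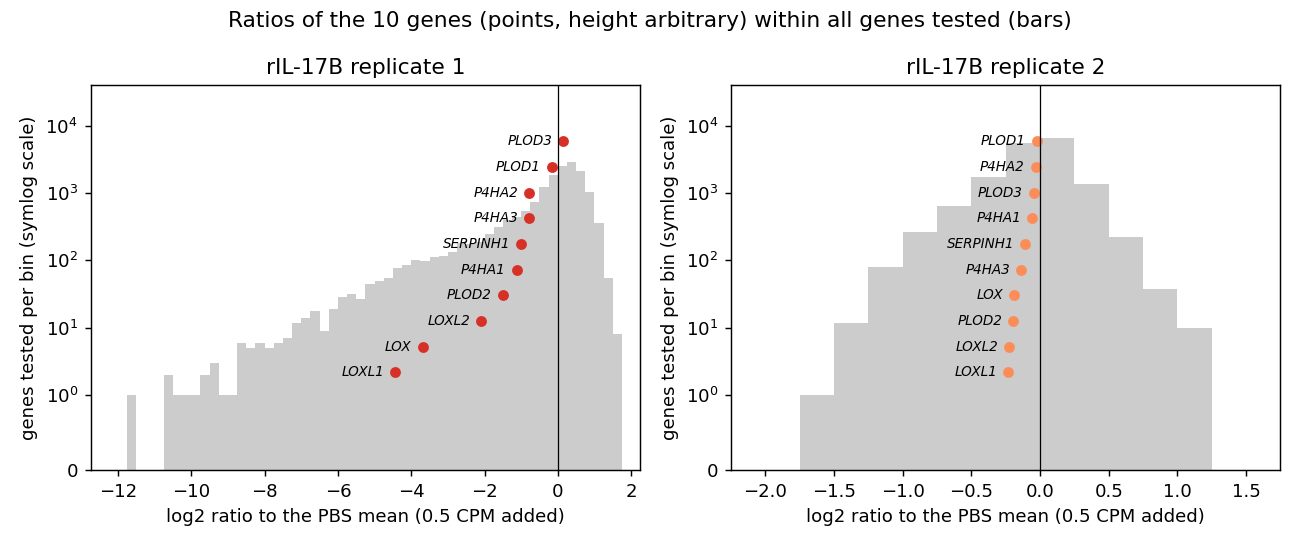
Log2 ratio to the PBS mean of all 16361 genes tested (grey bars, number of genes per bin of 0.25 on a symlog axis) with the 10 collagen genes as points, whose height has no meaning. The horizontal axes differ in range: in rIL-17B replicate 1 the 10 genes reach from -4.44 for LOXL1 to 0.15 for PLOD3, and in replicate 2 from -0.23 for LOXL1 to -0.025 for PLOD1.

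The groups were compared with edgeR's quasi-likelihood test over all 16361 genes, with Benjamini-Hochberg adjustment. Of all genes tested, 0 had an adjusted p under 0.05 (0% called), and therefore 0 of the 10 collagen genes did. The adjusted p of the 10 genes in edgeR lay between 0.661 and 0.928. At an unadjusted p under 0.05 edgeR gave 226 genes (1.38%), none of them among the 10. DESeq2, run without the filter on 31907 genes, also called 0 genes, with 547 at an unadjusted p under 0.05. The fitted log2 fold change was below 0 for all 10 genes, with a median of -0.54, where 52.6% of all genes tested were below 0 and the median was -0.030. The largest was that of LOXL1, -1.18 with a standard error of 1.45, followed by LOX with -1.08 (standard error 1.24) and LOXL2 with -0.91 (standard error 0.72). PLOD2 had -0.75 (standard error 0.54), and P4HA1, SERPINH1, P4HA3 and P4HA2 lay between -0.54 and -0.41. PLOD1 had -0.16 (standard error 0.15). The value of PLOD3, -0.017 with a standard error of 0.10, turned to 0.056 when library totals alone set the scale. This test could not tell any of these differences apart from the spread between libraries.

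The 2 rIL-17B libraries differed 21.7-fold for LOXL1, 11.5-fold for LOX, 3.65-fold for LOXL2 and 2.48-fold for PLOD2, where the PBS libraries differed between 1.001-fold and 1.2-fold over the 10 genes. Without rIL-17B replicate 1, the lone treated library was assumed to vary like the PBS libraries. In that edgeR fit 504 genes (2.95% of those tested, and 2.3% as lower) had an adjusted p under 0.05, but 0 of the 10 genes, whose smallest adjusted p was 0.13 for LOXL2. All 10 log2 fold changes were again below 0, with a median of -0.13, and 51.9% of all genes were. PLOD2, LOX, LOXL1 and LOXL2 had an unadjusted p under 0.05, against 13.7% of all genes tested and 8.13% as lower, and their log2 fold changes were between -0.24 and -0.19 with standard errors of 0.084 to 0.10. Without rIL-17B replicate 2, 9489 genes (55.1%) were called, 31.9% as lower, and 9 of the 10 genes were lower with an adjusted p under 0.05 in edgeR. At an unadjusted p under 0.05 these were again 9, against 58.8% of all genes tested and 33.7% as lower, and 53.2% of all genes had a log2 fold change below 0. The log2 fold changes were then -4.81 for LOXL1 (standard error 0.18), -3.85 for LOX (standard error 0.11), -2.23 for LOXL2 (standard error 0.10) and -1.64 for PLOD2 (standard error 0.09). PLOD3 was the exception, with 0.017 (standard error 0.088, adjusted p = 0.887 in edgeR). A call made with 1 of the 2 rIL-17B libraries left out compares the remaining library with PBS and not the treatment.

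**Figure D3:**
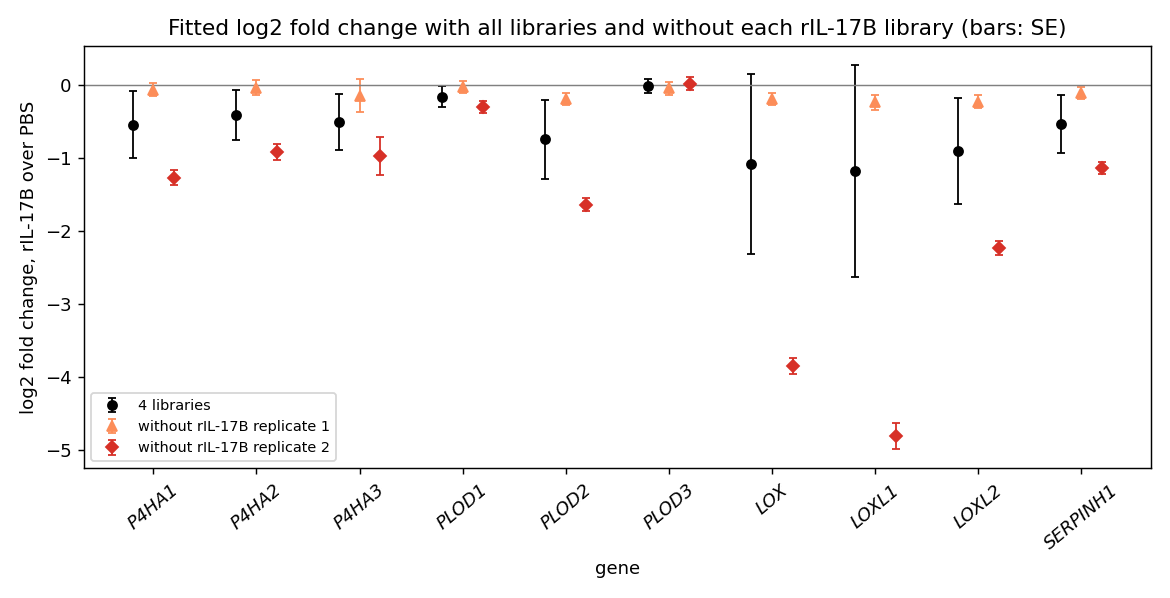
Log2 fold change of rIL-17B over PBS from edgeR for each gene, with its standard error, fitted on the 4 libraries (circles), without rIL-17B replicate 1 (triangles) and without rIL-17B replicate 2 (diamonds). LOXL1 moves from -1.18 with 4 libraries to -0.24 and -4.81, and PLOD3 stays between -0.049 and 0.017.

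Levels of different genes were compared per length, as CPM per kb of the merged exons of GENCODE 29. With PBS, SERPINH1 was the highest of the 10 at 126 ± 0.531 CPM per kb (SD, n = 2), above 98.8% of the genes tested that have a gene model. PLOD1 at 70.3 ± 0.664 and LOX at 67.3 ± 7.35 CPM per kb followed, and their values overlapped between the PBS libraries, so that their order cannot be told. LOXL2 was at 53.8 ± 0.0449, PLOD2 at 47.4 ± 2.55 and P4HA1 at 34.3 ± 4.41 CPM per kb. PLOD3 was at 23.8 ± 1.12, LOXL1 at 18.7 ± 0.319, P4HA2 at 8.36 ± 0.575 and P4HA3 at 1.94 ± 0.189 CPM per kb, and from LOX downwards no neighbours in the order overlapped. rIL-17B replicate 2 kept this order for all 10 genes. In replicate 1 SERPINH1, at 62.7 CPM per kb, and PLOD1, at 62.5 CPM per kb, were nearly level, PLOD3 moved from place 7 to place 3, LOX from place 3 to place 7, and LOXL1 from place 8 to place 10. The longest coding transcript as the length put PLOD2 in place 3 and LOX in place 5 with PBS, and exchanged P4HA1 and PLOD3.

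The share of each gene within its family does not depend on the scaling of the libraries. LOX made up 50.1% and 46.1% of the length-scaled lysyl oxidase counts with PBS and 48.8% in rIL-17B replicate 2, but 27.8% in replicate 1. LOXL2 took 37.2% and 39.9% with PBS, 38.0% in replicate 2 and 68.2% in replicate 1, where LOXL1 was left with 3.97%. The summed level of the 3 lysyl oxidases was 145 and 135 CPM per kb with PBS, 18.5 in rIL-17B replicate 1 and 121 in replicate 2. Among the lysyl hydroxylases the share of PLOD2 was 34.7% and 32.4% with PBS, 31.0% in replicate 2 and 15.8% in replicate 1, and the family sum differed less, with 142 and 141 CPM per kb with PBS, 106 in replicate 1 and 133 in replicate 2. The prolyl 4-hydroxylases kept nearly the same make-up, with P4HA1 at 78.0% and 75.7% with PBS and 72.5% and 76.9% with rIL-17B. Their sum was 48.0 and 41.2 CPM per kb with PBS, 21.6 in replicate 1 and 42.9 in replicate 2. No test was made on the shares.

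Other genes of collagen synthesis were taken from a list of 27 genes for hydroxylation, folding, export, propeptide removal and crosslinking, of which 26 were tested. None was called in either direction in edgeR. Their median log2 fold change was -0.23, and 19 were below 0 and 7 above, where 52.6% of all genes tested were below 0. Both rIL-17B values lay below both PBS values for 13, against 27.5% of all genes, and above them for 6, against 31.5%. In replicate 1, 10 were at least 2-fold below the PBS mean, against 18.6% of all genes, and 0 above it, against 2.61%. P4HB, the partner of the P4HA subunits in the prolyl 4-hydroxylase, was the highest of the list per length. It was at 702 and 705 CPM in the PBS libraries, against 619 CPM in rIL-17B replicate 1 and 679.7 in replicate 2, which is 88.0% and 96.6% of the PBS mean, where P4HA1 was at 45.6% and 96.0%. FKBP10, a prolyl isomerase that acts on procollagen, was at 342 and 336 CPM in the PBS libraries, against 157 CPM in rIL-17B replicate 1 and 314 in replicate 2. PPIB, the isomerase of the prolyl 3-hydroxylase complex, was at 149 and 130 CPM in the PBS libraries, against 153 CPM in rIL-17B replicate 1 and 151 in replicate 2, above both PBS values in both libraries. The 3 genes of this list with the smallest p in edgeR had an adjusted p of 0.661 each. PCOLCE2, an enhancer of procollagen C-proteinase, had 28.6 and 32.7 CPM in the PBS libraries, against 48.6 CPM in rIL-17B replicate 1 and 37.0 in replicate 2 (log2 fold change 0.41, standard error 0.15). BMP1, the C-proteinase, had 131 and 135 CPM against 116 and 124 CPM (log2 fold change -0.22, standard error 0.13). ADAMTS3, which removes N-propeptides, had 41 and 60 counts in the PBS libraries, against 4 counts in rIL-17B replicate 1 and 25 in replicate 2 (log2 fold change -2.09, standard error 0.95). Without rIL-17B replicate 1, 2 genes of the list were called lower in edgeR, against 2.3% of all genes, ADAMTS3 (adjusted p = 0.0395) and CREB3L1 (adjusted p = 0.0046, log2 fold change -0.46). CREB3L1, a transcription factor of collagen genes named here after its values were seen, was at 46.7 and 50.7 CPM in the PBS libraries, against 2.05 CPM in rIL-17B replicate 1 and 35.4 in replicate 2.

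The median of the collagens on which these enzymes act was further below PBS in rIL-17B replicate 1 than that of the enzymes. In 7 fibrillar and type IV chains the median log2 ratio to the PBS mean was -3.53 in replicate 1 and -0.20 in replicate 2. All 7 had both rIL-17B libraries below both PBS libraries, against 27.5% of all genes tested. In replicate 1, 5 of the 7 were at least 2-fold lower, against 18.6% of all genes tested. The exceptions, named after their values were seen, were COL5A1 at 50.7% of the PBS mean and COL5A2 at 76.1%. COL1A2, a chain of collagen I, had 87731 and 67635 counts in the PBS libraries, only 16 in rIL-17B replicate 1 and 82503 in replicate 2. COL1A1, the other chain of collagen I, was at 7264 and 7511 CPM in the PBS libraries, against 205 CPM in rIL-17B replicate 1 and 6192 in replicate 2. In 10 general ER folding proteins the medians were -0.21 in replicate 1 and 0.051 in replicate 2. In replicate 1, 1 of these genes was 2-fold lower, against 18.6% of all genes. In 13 hypoxia targets outside the 10 genes the medians were -0.27 and -0.061. In replicate 1, 5 of them were 2-fold lower, against 18.6% of all genes, and 0 were 2-fold higher, against 2.61%. Both rIL-17B libraries were below both PBS libraries for 8, against 27.5%, and above them for 4, against 31.5%. None of the genes of these 3 lists was called in edgeR with the 4 libraries. Without rIL-17B replicate 1, the log2 fold changes were -0.26 for COL1A1 and -0.28 for COL4A1, where the median of the 7 chains was -0.20. LDHA, a hypoxia target that encodes a lactate dehydrogenase subunit, had 0.24, where the median of the 13 hypoxia targets was -0.065. COL4A1 and LDHA were named after their values were seen.

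Overlap with other genes limits some of these counts, because the use of strand in counting is not given. Exons of P4HA3 overlap PPME1 on the other strand, which had 1015 to 1695 counts, so the 63 to 123 counts of P4HA3 are uncertain. Exons of LOX overlap SRFBP1 (166 to 245 counts), those of PLOD3 overlap ZNHIT1 (811 to 1065 counts) and those of LOXL1 overlap LOXL1-AS1 (28 to 66 counts), each on the other strand. LOXL2 shares exons with ENTPD4 on the same strand (800 to 1200 counts). PLOD1, PLOD2 and SERPINH1 have no overlapping exons in GENCODE 29, and the pseudogene SERPINH1P1 had at most 2 counts.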

How the data were processed

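Smart-seq2 RNA sequencing libraries of HGC-27 cells, 2 with PBS and 2 with rIL-17B, were used, grouped by their labels. The authors deposited raw counts of reads per gene name, without normalization. The submitters' processing notes name HISAT2 2.1.0, Bowtie2 2.2.3, TopHat2, HTSeq 0.6.0 and hg38, without saying which step each served. The annotation and strand setting are not given in the sources used here. A gene not listed was given 0 counts. Entries with names turned into date-like numbers (22 to 25 per library, at most 0.244% of counts) were left out, and repeats of a name, all with equal counts (83 to 98), were dropped. Gene models are those of GENCODE 29 (GRCh38), in which 97.84% of the names had a single match. Promoters are from RefSeq (GRCh38.p14).

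CPM used library totals. The groups were compared by edgeR 4.0.16 under R 4.3.3 (scaling by TMM, filterByExpr, quasi-likelihood F test, Benjamini-Hochberg, threshold 0.05). The same fit was run on simulated counts with a common spread for all genes and libraries. No simulated library differed from the rest as rIL-17B replicate 1 does, so that run says nothing on the count of 0 genes. Standard errors are the absolute log2 fold change divided by the square root of F. Alternatives were DESeq2 1.42.0, other scalings and filters, a replicate block and leaving out each library. Tables were made with Python 3.11.15. All 10 members were named, and of the other pathway genes the 3 highest per length, the 3 with the smallest p and P4HB, besides COL1A1 and COL1A2. Members and lists were chosen with earlier results of these data known.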

Additional observations from a re-analysis of the deposited data

How the results depend on the processing

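The count of 0 genes and of 0 collagen enzymes past an adjusted p of 0.05 in edgeR was the same with the replicate number as a block, with upper-quartile scaling, with library totals only, with no filter, with a minimum of 10 counts per library, with summed repeated names, at a threshold of 0.1 and with DESeq2. At an unadjusted p under 0.05 these fits gave between 161 and 879 genes, and 173 with the block. The 879 with no filter and the 547 with DESeq2 were each over 31907 genes, where the main fit tested 16361. Leaving out each library in turn gave 0 to 9489 genes, 0 to 9 of the 10 enzymes and medians of their log2 fold changes from -1.20 to -0.13. Without PBS replicate 1 or 2 there were 0 genes, without rIL-17B replicate 1 there were 504 and without rIL-17B replicate 2 there were 9489. The direction was below 0 for all 10 enzymes, except that PLOD3 had a log2 fold change of 0.056 with library totals only, and of -0.056 to 0.022 when each library was left out in turn. A comparison added after the data were seen counted the enzymes with non-overlapping groups. Without rIL-17B replicate 1 these were 7 lower and 0 higher, against 36.1% and 37% of all genes. Without replicate 2 they were 9 lower and 1 higher, against 40.8% and 50.1%. These repeat the counts given above for each rIL-17B library alone. They are no separate check, since enzymes below PBS in both libraries stay counted with either. The 6 enzymes 2-fold lower in rIL-17B replicate 1 were 5 with 2 CPM added, since SERPINH1 stands at the limit.

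The family shares moved with the gene length by construction. With the longest coding transcript, the share of LOX was 38.7% with PBS and 20.7% in rIL-17B replicate 1. That of P4HA1 was then 60.1% and 54.5%, and that of PLOD2 35.9% with PBS. With this length LOXL2 and not LOX had the largest share of the lysyl oxidases with PBS. LOXL2 was at 44.6% and 47.2% in the PBS libraries, and LOX at 40.6% and 36.8%. In rIL-17B replicate 2 LOXL2 was at 45.4% and LOX at 39.4%. With no length correction the share of P4HA1 was 57.3% with PBS and 51.5% in replicate 1, and that of PLOD2 41.6% and 20.9%.

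The replicate numbers pair no libraries by anything in the labels. The deviations from the group means correlated at 0.080 between libraries of one number, over 16361 genes, which are not independent replicates. With the replicate block the median log2 fold change of the enzymes was -0.64, that of LOX -2.01 and that of LOXL1 -2.44, and their smallest adjusted p in edgeR was 0.675.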

Other observations

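The following genes were chosen after their values were seen, and no explanation was tested for them. 2 further lysyl oxidases, LOXL3 and LOXL4, were also low in rIL-17B replicate 1. LOXL3 had 402 and 351 counts in the PBS libraries, against 66 in rIL-17B replicate 1 and 400 in replicate 2. LOXL4 had 613 and 429 counts with PBS, 3 in replicate 1 and 620 in replicate 2, so that its level in replicate 2 was 98.3% of the PBS mean. The prolyl 3-hydroxylases, which modify single prolines of collagen chains, did not share 1 direction in replicate 1. P3H3 was at 36.7 and 35.1 CPM in the PBS libraries, against 1.44 and 33.9 CPM in the rIL-17B libraries, and P3H1 was at 102 and 108 CPM in the PBS libraries, against 65.2 and 102 CPM in the rIL-17B libraries. P3H2 was at 31.8 and 34.3 CPM in the PBS libraries, against 43.6 and 34.9 CPM in the rIL-17B libraries. ADAMTS2, the main procollagen N-proteinase, had 4784 and 3742 counts with PBS, 3 in replicate 1 and 4363 in replicate 2, while the C-proteinase gene BMP1 was at 86.8% of the PBS mean in replicate 1. None of these genes was called in edgeR with the 4 libraries.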
